A study of Mus musculus with 12 samples.

Results

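Transcripts of 10 AP-1 and immediate early genes were examined in mouse liver after concanavalin A (Con A), a lectin from plants used to stimulate T cells and injure the liver. They were Fos, Jun, Junb, Jund, Fosl2, Atf3, Maff, Egr1, Ier3 and Myc, chosen by name, and all 10 were found among the 11289 genes of the deposited table. C57BL/6J mice, with an age of 8 to 10 weeks in the sample labels, made up 3 groups of 4 animals. The Con A + PBS group received Con A at 15 mg/kg through the tail vein and phosphate-buffered saline (PBS) into a vein 30 min later. The Con A + hWJ-MSCs group received the same Con A dose and, 30 min later, human umbilical cord Wharton's jelly mesenchymal stem cells (hWJ-MSCs), 2000000 by the labels. Livers were taken at 24 h, and whether the control mice were injected is not given in the sources used here. The study states another age range and another cell number than the labels, and all its mice were males. No transgene or knockout is named for the hosts, the cells came from another species, and the reads were placed on a mouse genome, so transcripts of the infused human cells were not analysed here.

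AP-1 is a family of dimers that bind DNA through a basic leucine zipper. FOS proteins pair with JUN proteins, JUN proteins can also pair with one another, and ATF3 and the small MAF protein MAFF belong to neighbouring branches of the same zipper family. Immediate early genes are transcribed within minutes of a growth factor, cytokine or stress signal without new protein synthesis, usually through MAP kinases, serum response factor and NF-kB, and many of their RNAs are short lived. In liver they are known from regeneration after loss of tissue, from the acute phase response and from cell stress.

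Each value below is a normalized score, a whole number for 1 gene in 1 mouse that the authors had already brought to nearly the same distribution in all mice. The median score was 352 in every mouse and 82.1% of ranks carried the same value in all 12 mice, so the column totals of 17649654 to 17657159 are not sequencing depth, which is unknown. The scores are not per length, so levels are compared between mice and not between genes. Differences were tested with limma on log2(score + 1) over all 11289 genes, and a gene passed when its Benjamini-Hochberg adjusted p was below 0.05 and its fold change above 1.5. For genes of low score the true change is larger than the fold change on this scale. Hepatocyte identity was clear, with all 10 hepatocyte markers in the table and Alb at the largest score, 341028, in every mouse. Con A + PBS replicate 4 stood apart on the second principal component (13.5% of variance), at -55.2 against -15 to 7.57 in the other Con A + PBS mice, and the calls for hWJ-MSCs against PBS and the spread between mice are also given without it.

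The bases before a gene's start can hold the sequences that signal-dependent factors read. RefSeq promoter windows of GRCm38.p6 were matched by symbol for 8 of the 10 genes, and the 250 bases before the start were searched on both strands. The motifs were TGACTCA or its reverse complement TGAGTCA, the AP-1 site, TGACGTCA, the cyclic AMP response element bound by ATF and CREB proteins, the CArG box of serum response factor and the NF-kB motif. The promoters of Fos (chr12:85473640-85473889, plus strand), Maff (chr15:79347270-79347519, plus strand) and Ier3 (chr17:35821463-35821712, plus strand) are shown as examples of windows that hold a match, and capitals mark the match.
Fos: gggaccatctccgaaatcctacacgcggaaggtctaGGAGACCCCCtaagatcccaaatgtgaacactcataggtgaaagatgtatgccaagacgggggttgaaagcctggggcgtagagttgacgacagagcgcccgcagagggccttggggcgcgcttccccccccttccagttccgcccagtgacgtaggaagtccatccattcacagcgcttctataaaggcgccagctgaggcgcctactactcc
Maff: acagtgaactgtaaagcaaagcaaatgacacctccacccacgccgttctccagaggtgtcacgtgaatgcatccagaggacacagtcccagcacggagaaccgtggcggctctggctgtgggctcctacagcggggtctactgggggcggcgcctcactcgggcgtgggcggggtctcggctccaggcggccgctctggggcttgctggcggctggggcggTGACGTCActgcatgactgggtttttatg
Ier3: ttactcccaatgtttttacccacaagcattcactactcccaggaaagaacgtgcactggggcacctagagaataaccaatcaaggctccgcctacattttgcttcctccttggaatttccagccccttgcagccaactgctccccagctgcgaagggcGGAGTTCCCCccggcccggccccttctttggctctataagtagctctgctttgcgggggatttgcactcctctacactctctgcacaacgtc
In Fos the capitals mark an NF-kB motif read on the opposite strand, 214 to 205 bases before the start, and in Ier3 another on the opposite strand, 92 to 83 bases before it. Maff holds the cyclic AMP response element, which reads the same on both strands, 29 to 22 bases before the start. Its window is the nearest of 3 RefSeq windows to the start in the deposited table, 21 bases away, and the Ier3 start lies 29 bases from that of the table. A further NF-kB match, read on both strands with a shift of 1 base, lay in Fosl2, whose window is not shown, and the windows of Jun, Junb, Jund and Atf3 held none of the 4 motifs. The GENCODE M21 annotation starts the Fosl2 transcript at base 32135801, before its window at 32136222 to 32136471. It starts the Jund transcript at base 70698949, after its window at 70697489 to 70697738. Neither the AP-1 site nor the CArG box was found in any of the 8 windows, which says only that these letters are not there. Among 32851 promoter windows of this length, 4.46% held the AP-1 site, 1.55% the cyclic AMP response element, 1.47% the CArG box and 3.9% the NF-kB motif. A match is a description of the letters and not evidence of binding.

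After Con A and PBS, 9 of the 10 genes rose above the control mice, where 19.5% of all 11289 genes rose, and Egr1 did not pass. The largest changes were those of Atf3, a stress-induced repressor and activator of the ATF family, at 35.5-fold, and of Ier3, an early response gene linked to survival signalling, at 35.2-fold. Their log2 fold changes were 5.15 and 5.14, and 4.51 and 4.62 without Con A + PBS replicate 4. With hWJ-MSCs, 7 of the 10 genes were lower than with PBS, by 2.02-fold (Fosl2) to 6.23-fold (Atf3), where 4.38% of all genes were lower. Atf3 and Ier3 alone among the 10 genes were above the control mice in the hWJ-MSCs group by limma, where 13.6% of all genes were higher. Both comparisons that involve Con A + PBS use the same 4 mice of that group, so they are not independent of each other. The values of every mouse follow by gene family, and the plot of scores by mouse shows them all.

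**Figure D1:**
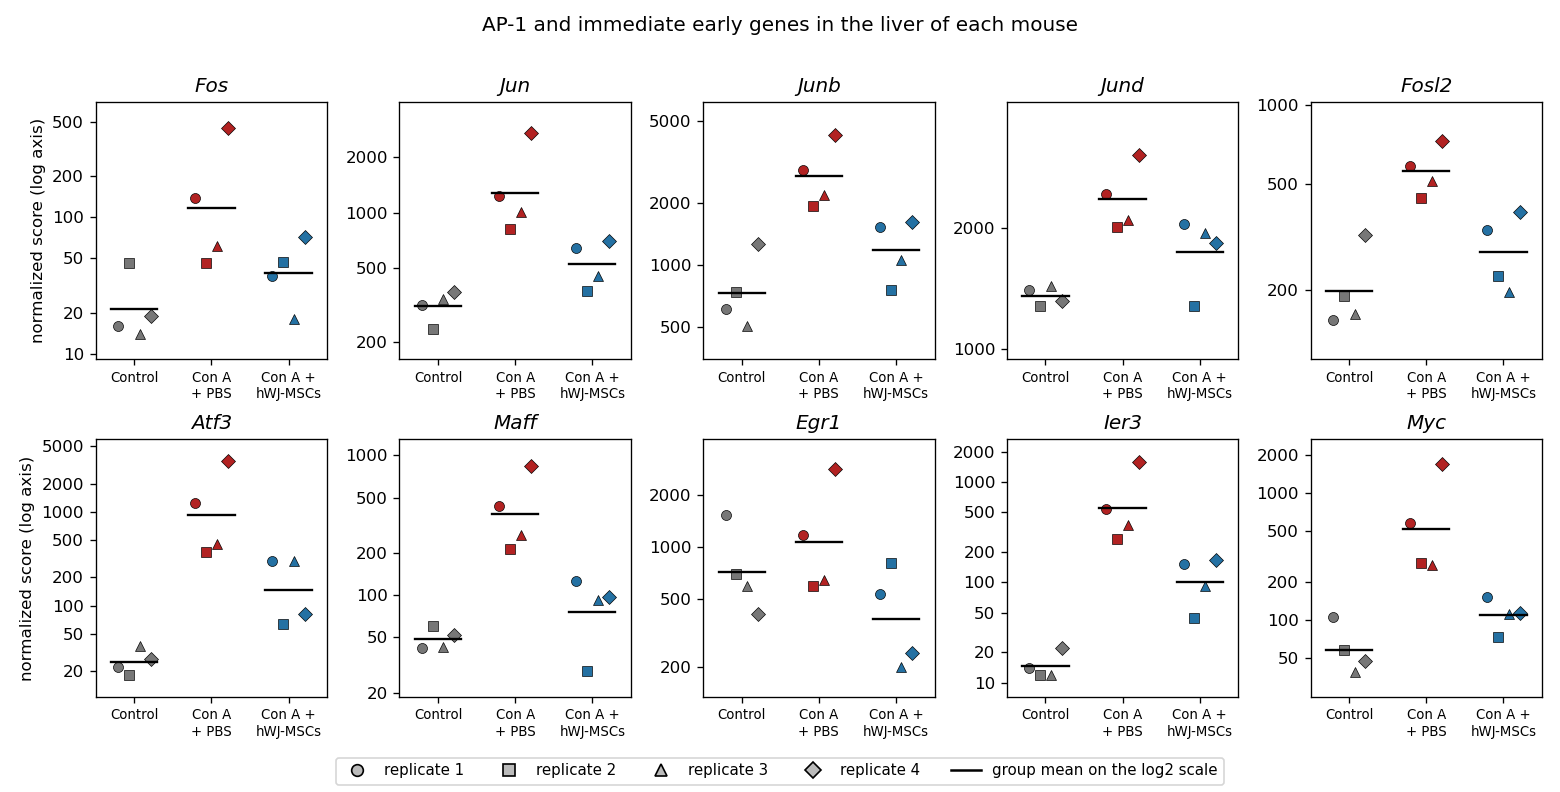
Normalized score of each of the 10 genes (vertical log axis, a separate range for each panel) in the 4 mice of each group (horizontal axis), with a marker shape for each replicate number and a line at the group mean on the log2 scale. The diamond of Con A + PBS replicate 4 is the highest Con A + PBS point in all 10 panels, and in Egr1 the groups overlap.

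FOS proteins cannot pair with themselves and act through JUN partners. Fos (chr12:85473890-85477273 in mm10, plus strand, 4 exons) was scored at 16, 46, 14 and 19 in the control mice, at 140, 46, 62 and 454 with Con A + PBS, and at 37, 47, 18 and 72 with hWJ-MSCs. A single Con A + PBS mouse carried most of the group's total, and the lowest mouse of that group equalled the highest control mouse. Fos rose 5.31-fold after Con A (log2 fold change 2.41 ± 0.65 SE, n = 4 and 4, adjusted p = 0.00748 by limma), while the exact two-sided permutation test of the 8 mice gave p = 0.0571. With hWJ-MSCs the log2 difference from Con A + PBS was -1.56 ± 0.65, which did not pass (limma adjusted p = 0.113). These log2 values were, without Con A + PBS replicate 4, 1.76 (limma adjusted p = 0.0159) and -0.91 (adjusted p = 0.288).

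Fosl2 (chr5:32136472-32157831, plus strand, 4 exons) encodes FRA2, a FOS relative without the strong activation region of FOS. Its scores were 153, 189, 162 and 322 in control mice, 588, 446, 514 and 728 with Con A + PBS, and 336, 226, 196 and 392 with hWJ-MSCs. Every Con A + PBS mouse lay above every mouse of the other groups, and the hWJ-MSCs mice overlapped the controls. Fosl2 rose 2.83-fold after Con A (log2 1.5 ± 0.27 SE, limma adjusted p = 0.000479) and was 2.02-fold lower with hWJ-MSCs than with PBS (log2 -1.02 ± 0.27, adjusted p = 0.0334). Its difference between the hWJ-MSCs and control mice, 0.49 ± 0.27 on the log2 scale, did not pass (limma adjusted p = 0.162).

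The JUN proteins are the partners of FOS. Jun (chr4:95049034-95052222, minus strand, a single exon) encodes c-JUN, the target of the JUN N-terminal kinases. Jun scored 316, 236, 342 and 370 in control mice, 1232, 811, 1005 and 2687 with Con A + PBS, and 642, 377, 452 and 698 with hWJ-MSCs. The 3 groups did not overlap, with the hWJ-MSCs mice between the others. Jun rose 4.1-fold after Con A (log2 2.04 ± 0.32 SE, limma adjusted p = 0.000209) and was 2.44-fold lower with hWJ-MSCs than with PBS (log2 -1.28 ± 0.32, adjusted p = 0.0305). Its level with hWJ-MSCs was 1.68-fold that of the controls, without overlap (exact permutation p = 0.0286, the smallest that 4 against 4 mice can give), but the limma adjusted p was 0.0789. The antisense gene Junos shares 689 bases with Jun, and the library kit does not mark strand, so reads of the pair cannot be told apart there.

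JUNB, which can oppose c-JUN at some promoters, is encoded by Junb (chr8:84976909-84978748, minus strand, a single exon). Control mice were scored at 609, 735, 502 and 1268, Con A + PBS mice at 2896, 1944, 2178 and 4272, and hWJ-MSCs mice at 1523, 751, 1054 and 1624. All Con A + PBS mice were above all others, and control replicate 4 lay inside the range of the hWJ-MSCs mice. Junb rose 3.68-fold after Con A (log2 1.88 ± 0.33 SE, limma adjusted p = 0.00043) and was 2.27-fold lower with hWJ-MSCs (log2 -1.18 ± 0.33, adjusted p = 0.0384). Jund (chr8:70697739-70700616, plus strand, a single exon) encodes the JUN protein that is usually present in resting cells. Its scores were 1402, 1280, 1435 and 1320 in control mice, 2437, 2020, 2096 and 3038 with Con A + PBS, and 2053, 1280, 1944 and 1836 with hWJ-MSCs. The smallest rise among the 9 genes that passed was that of Jund, 1.74-fold (log2 0.80 ± 0.16 SE, limma adjusted p = 0.00119). The hWJ-MSCs mice did not pass against the Con A + PBS mice (log2 -0.43 ± 0.16, limma adjusted p = 0.0817), and hWJ-MSCs replicate 1 lay inside the range of that group. Jund shares 919 bases with the antisense gene Gm11175, with the same limit as for Jun.

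Atf3 (chr1:191170296-191183340, minus strand, 4 exons) is induced by many forms of cell stress. It was scored at 22, 18, 37 and 27 in control mice and at 1240, 372, 458 and 3488 with Con A + PBS. The hWJ-MSCs mice were scored at 300, 64, 302 and 82, so that all 3 groups were separate and the hWJ-MSCs mice fell into a higher and a lower pair. The log2 fold change after Con A was 5.15 ± 0.68 SE (limma adjusted p = 5.57e-05). With hWJ-MSCs Atf3 was 6.23-fold lower than with PBS (log2 -2.64 ± 0.68, limma adjusted p = 0.0321) and still 5.7-fold above the controls (log2 2.51 ± 0.68, adjusted p = 0.0107). Without Con A + PBS replicate 4 the log2 fold change after Con A was 4.51 (limma adjusted p = 6.04e-05), and the difference from PBS, -2.0, did not pass (adjusted p = 0.066).

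Maff (chr15:79347541-79359072, plus strand, 3 exons) encodes a small MAF protein without an activation domain. Control mice had scores of 42, 60, 43 and 52, Con A + PBS mice 436, 213, 268 and 844, and hWJ-MSCs mice 126, 29, 92 and 98. The lowest mouse of all 12 was hWJ-MSCs replicate 2, below the control range, while the other 3 hWJ-MSCs mice lay above it. Maff rose 7.68-fold after Con A (log2 2.94 ± 0.46 SE, limma adjusted p = 0.000189) and was 4.96-fold lower with hWJ-MSCs than with PBS (log2 -2.31 ± 0.46, adjusted p = 0.0208). The difference between hWJ-MSCs and control mice was 0.63 ± 0.46 on the log2 scale and did not pass (limma adjusted p = 0.294).

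Ier3 (chr17:35821684-35822923, plus strand, 2 exons) is a target of NF-kB and of MAP kinase signalling. It scored 14, 12, 12 and 22 in control mice, 541, 274, 374 and 1604 with Con A + PBS, and 152, 44, 92 and 167 with hWJ-MSCs. The groups were separate, with every hWJ-MSCs mouse between the controls and the Con A + PBS mice. The log2 fold change after Con A was 5.14 ± 0.52 SE (limma adjusted p = 7.54e-06). Ier3 was 5.37-fold lower with hWJ-MSCs than with PBS (log2 -2.43 ± 0.52, limma adjusted p = 0.0232) and 6.55-fold above the controls (log2 2.71 ± 0.52, adjusted p = 0.0014).

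Myc (chr15:61985391-61990350, plus strand, 3 exons) encodes a factor of another DNA-binding family, which pairs with MAX and drives growth and ribosome production. Scores of 106, 58, 39 and 48 were found in control mice, 578, 282, 274 and 1692 with Con A + PBS, and 152, 74, 112 and 113 with hWJ-MSCs. Every Con A + PBS mouse exceeded every other mouse, and only hWJ-MSCs replicate 2 lay below the highest control mouse among the mice given the cells. Myc rose 8.86-fold after Con A (log2 3.15 ± 0.50 SE, limma adjusted p = 0.000232) and was 4.77-fold lower with hWJ-MSCs than with PBS (log2 -2.25 ± 0.50, adjusted p = 0.0252). Against the controls its log2 difference with hWJ-MSCs was 0.89 ± 0.50 (limma adjusted p = 0.174).

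Egr1 (chr18:34859823-34864984, plus strand, 2 exons) encodes a zinc finger factor and is a classic immediate early gene. It scored 1534, 696, 588 and 404 in control mice, 1182, 590, 639 and 2857 with Con A + PBS, and 530, 806, 198 and 240 with hWJ-MSCs. The 3 groups overlapped, and 1 control mouse exceeded 3 of the 4 Con A + PBS mice. None of its differences passed, at 0.58 ± 0.57 SE on the log2 scale after Con A (limma adjusted p = 0.402), -1.49 ± 0.57 for hWJ-MSCs against Con A + PBS (adjusted p = 0.0877) and -0.91 ± 0.57 for hWJ-MSCs against controls (adjusted p = 0.22). Without Con A + PBS replicate 4 the log2 difference after Con A was 0.11.

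For the genes as a group, the 9 of 10 that rose after Con A stand beside 19.5% of all genes that rose and 19.2% that fell by the same limma rule. The 10 genes, like the related lists below, were chosen with earlier results of these data known. Their counts beside all genes are a description and not a test. No gene of the 10 fell by the limma rule, or at an unadjusted p below 0.05. In 8 of the 10 genes, all but Fos and Egr1, every Con A + PBS mouse was above every control mouse, against 27.1% of all genes. The median log2 fold change of the 10 genes was 2.22, and that of all genes was 0.05. Leaving out any 1 of the 12 mice left the count at 9, and without Con A + PBS replicate 4 the log2 fold changes of these 9 genes ran from 0.68 (Jund) to 4.62 (Ier3).

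With hWJ-MSCs against PBS, the 7 genes that were lower were Jun, Junb, Fosl2, Atf3, Maff, Ier3 and Myc, and the same 7 were without overlap between the groups. Of all genes, 4.38% were lower by the same limma rule, 4.2% were higher, and 11.6% were lower without overlap. No gene of the 10 was higher by limma or at an unadjusted p below 0.05. At an unadjusted p below 0.05 with the same fold threshold 9 were lower, beside 6.97% of all genes, with Fos and Egr1 added, and Jund had an unadjusted p of 0.0188 below that fold. The median log2 difference was -1.52, against 0.0 over all genes. This count depended on single mice. Without Con A + PBS replicate 4 it was 4, namely Jun (log2 -0.93, limma adjusted p = 0.0497), Maff (-1.93, adjusted p = 0.0383), Ier3 (-1.91, adjusted p = 0.0383) and Myc (-1.69, adjusted p = 0.0362). Atf3 (-2.0, limma adjusted p = 0.066), Fosl2 (-0.89, adjusted p = 0.0808) and Junb (-0.96, adjusted p = 0.0918) were lost there. Without Con A + PBS replicate 1, hWJ-MSCs replicate 2 or hWJ-MSCs replicate 3, limma called 0 of the 10 genes. In these fits 8, 9 and 7 of them were lower at an unadjusted p below 0.05 with a fold above 1.5, as were 6.31%, 5.76% and 6.47% of all genes. By the adjusted rule 7, 18 and 7 of all genes were called in either direction, against 969 with all mice. The highest adjusted p of any of the 7 genes in a fit without 1 mouse was 0.112.

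Against the control mice, 2 of the 10 genes were higher with hWJ-MSCs, Atf3 and Ier3, beside 13.6% of all genes higher and 13.1% lower. With Jun they were the 3 genes without overlap, where 20.6% of all genes were higher in that way. The median log2 difference was 0.72, and that of all genes was 0.04. With all mice, no gene of the 10 was lower by limma or at an unadjusted p below 0.05. The count was 5 without hWJ-MSCs replicate 2, when Jun, Junb and Maff also passed and Egr1 was lower at an unadjusted p below 0.05 (log2 -1.27, limma adjusted p = 0.0967), and 4 without control replicate 4, when Junb and Fosl2 did. It was 4 without Con A + PBS replicate 4 as well, through the common estimate of spread, with Jun (limma adjusted p = 0.0123) and Myc (adjusted p = 0.0436) added.

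**Figure D2:**
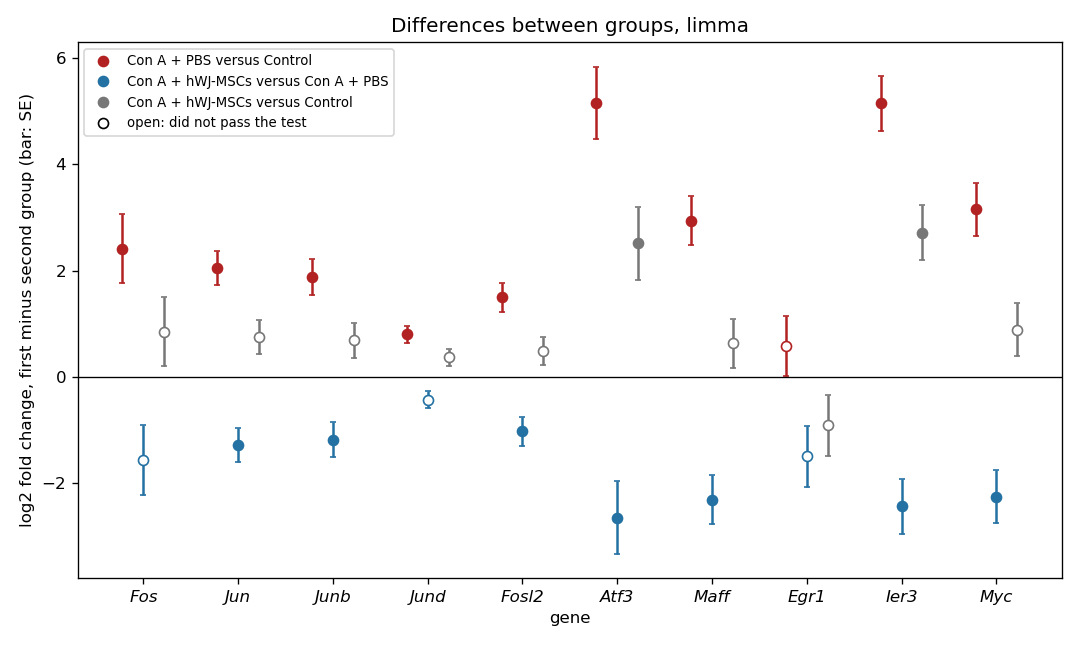
Log2 fold change of each of the 10 genes (horizontal axis) in the 3 comparisons, with bars of 1 SE from limma and open points where the gene did not pass. Atf3 and Ier3 reach 5.15 and 5.14 after Con A, 7 filled points lie below 0 for hWJ-MSCs against PBS, and only Atf3 and Ier3 are filled for hWJ-MSCs against controls.

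The spread between mice was wide for these genes in each group. The median SD of log2(score + 1) over the 10 genes was 0.457 in control mice, 0.964 with Con A + PBS and 0.664 with hWJ-MSCs, beside 0.222, 0.206 and 0.196 over all genes. These medians depended on single mice, which were left out in turn as an addition made after seeing the data. Without Con A + PBS replicate 4 the median of that group was 0.508, below the 0.664 with hWJ-MSCs, and 0.13 over all genes. Without hWJ-MSCs replicate 2 that of the hWJ-MSCs group was 0.397, and without control replicate 4 that of the controls was 0.282. In the Con A + PBS group Atf3 had an SD of 1.48, larger than in 99.2% of all genes, and Fos one of 1.47, larger than in 99.1%. The scores of these genes differed 9.38-fold and 9.87-fold between the lowest and the highest Con A + PBS mouse. Their group means were 1390 ± 1450 (SD, n = 4) for Atf3 and 175.5 ± 190 for Fos. Both rested on replicate 4, without which the means were 690.0 ± 478 (SD, n = 3) and 82.67 ± 50.3, the log2 SDs 0.927 and 0.821, and the ratios of highest to lowest mouse 3.33 and 3.04. Myc (SD 1.23), Ier3 (1.11) and Egr1 (1.05) also varied more there than 98.0% of genes or more, and had SDs of 0.609, 0.49 and 0.548 without replicate 4. The SD of Jun was 0.753 with that mouse and 0.301 without it, and that of Maff was 0.876 and 0.526. Fosl2 (0.3) and Jund (0.267) were the steadiest of the 10 genes in that group, above 70.3% and 64.2% of all genes, with SDs of 0.199 and 0.143 without replicate 4.

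Among control mice the range ran from Jund, with an SD of 0.0761, smaller than in most genes since only 5.86% had a smaller one, to Fos at 0.744 and Egr1 at 0.81. Both rested on single mice, with Fos at 0.208 without control replicate 2 and Egr1 at 0.401 without control replicate 1. With hWJ-MSCs, Atf3 again varied most (1.19, above 99.1% of genes), followed by Egr1 (0.952) and Maff (0.927). Without hWJ-MSCs replicate 2 the SDs were 1.08 for Atf3, 0.751 for Egr1 and 0.238 for Maff. In Junb the SD was 0.506 with Con A + PBS (0.296 without replicate 4) and 0.575 in control mice (0.275 without control replicate 4). No test of unequal spread was run, since each SD rests on 4 mice.

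**Figure D3:**
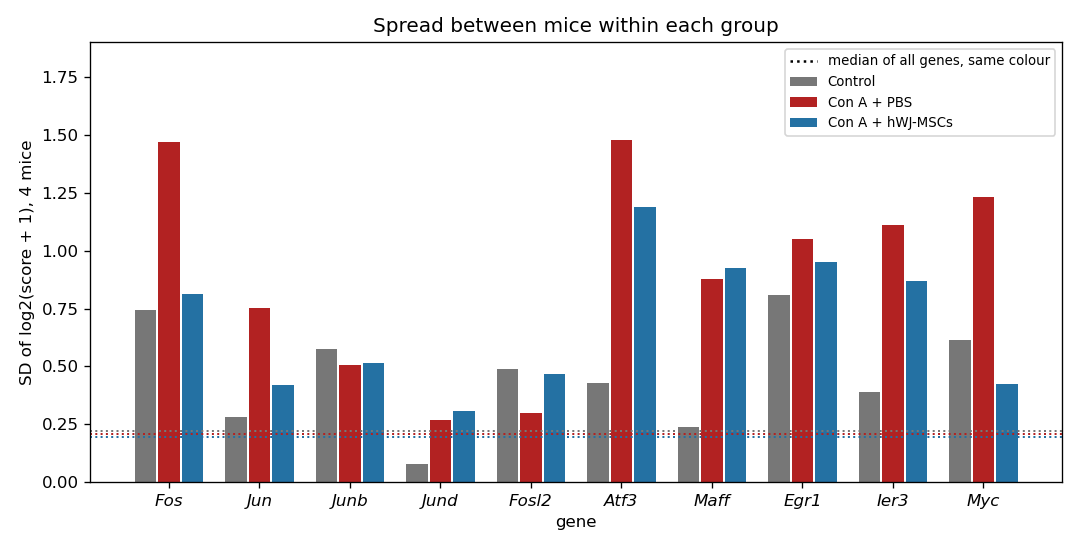
Standard deviation of log2(score + 1) over the 4 mice of each group (bars) for the 10 genes, with dotted lines at the median over all 11289 genes of the same group (0.222, 0.206 and 0.196). Atf3 and Fos have the tallest Con A + PBS bars, at 1.48 and 1.47 (0.927 and 0.821 without replicate 4 of that group), and the control bar of Jund, at 0.0761, is under its line.

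Con A + PBS replicate 4 had the highest score of its group in 10 of 10 genes, where the same mouse was highest in 39.8% of all genes and in 56.0% of the 2206 genes that rose after Con A. Its score was 1.24 times (Fosl2) to 3.24 times (Fos) that of the next highest mouse, with a median of 2.3 over the 10 genes, 1.05 over the genes that rose and 0.931 over all genes. Con A + PBS replicate 2 was lowest in 9 of 10 genes, against 48.2% of the genes that rose. Among the mice given hWJ-MSCs, replicate 2 was lowest in 7 of 10 genes, near its share of 61.2% of the genes that rose, and replicate 4 was highest in 5, against 38.8% of those genes. Among the control mice, each replicate was highest in 2 to 4 genes. The genes share these 4 mice per group, so the counts over genes do not add mice.

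The score of whole liver RNA sums over cell types, and fewer cells of a type cannot be told apart from less RNA per cell. The macrophage and monocyte markers, 9 of 10 in the table, summed to 3009 to 4742 in control mice, 6005 to 7289 with Con A + PBS and 2830 to 4542 with hWJ-MSCs. After Con A, 4 of these 9 markers rose and 5 fell, and Cd14 alone was lower with hWJ-MSCs than with PBS. Cd14 carried the rise of the sum, from 49 to 60 in control mice to 4032 to 5380 with Con A + PBS and 1009 to 2784 with hWJ-MSCs. The other 8 markers summed to 2954 to 4682, 1759 to 2222 and 1022 to 2467, and the median log2 fold change of the 9 after Con A was -1.39. Of 10 T cell markers, Cd8a, Lck and Thy1 were in the table, and they summed to 31 to 78, 232 to 481 and 269 to 375 in the 3 groups. The 8 genes in the table listed as neutrophil markers all rose after Con A. Lcn2 was scored at 1020 to 4920 in control mice and 72682 to 341028 with Con A + PBS. Which cells made the Lcn2 RNA was not tested. The other 7, below the largest score, summed to 216 to 345, 1284 to 2114 and 1047 to 2114 in the 3 groups. Con A + PBS replicate 4, the highest mouse for all 10 genes, had the lowest T cell sum of its group, 232, the lowest endothelial sum, 1631, and the lowest hepatocyte sum, 761465, against up to 824571 in the others. Its sum of the 7 neutrophil markers, 1284, was the lowest as well, while its Lcn2 score was 341028. The macrophage and monocyte sum of this mouse, 7001, and its stellate cell and fibroblast sum, 6794, lay inside the range of its group. Endothelial markers, all 10 in the table, summed to 3477 to 4875 in control mice, 1631 to 2253 with Con A + PBS and 1790 to 2453 with hWJ-MSCs. The 9 of 10 stellate cell and fibroblast markers in the table summed to 5426 to 8594, 6287 to 7329 and 4708 to 10350. Of these, Lrat, Reln, Colec11 and Pdgfrb fell after Con A, and Colec11 was higher with hWJ-MSCs than with PBS (log2 1.31 ± 0.34 SE). The hepatocyte markers summed to 1029001 to 1256696 in control mice, 761465 to 824571 with Con A + PBS and 808472 to 854184 with hWJ-MSCs. No hepatocyte marker rose after Con A by limma or at an unadjusted p below 0.05, and 3 fell by limma. The part of these shifts in the results for the 10 genes was not tested.

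Around the 10 genes, lists of related genes were counted by the same limma rule, under which 19.5% of all genes rose and 19.2% fell after Con A, 4.38% were lower with hWJ-MSCs than with PBS, and 13.6% were higher and 13.1% lower with hWJ-MSCs than in controls. Of 15 measured genes among 21 other AP-1 and related zipper factors, 3 rose and 4 fell after Con A, a split near that of all genes, with a median log2 fold change of 0.16. Batf2, a BATF relative, rose from 10 to 18 in control mice to 48 to 86 (log2 2.29 ± 0.34 SE, limma adjusted p = 0.000138) and was 31 to 98 with hWJ-MSCs. The large MAF factor Maf fell after Con A, from 517 to 620 in control mice to 196 to 290 (log2 -1.38 ± 0.15 SE, limma adjusted p = 1.74e-05). Mafk and Cebpg also rose, and Atf7 and Cebpa also fell. Mafk, a small MAF gene like Maff, and Cebpb were the 2 genes of this list that were lower with hWJ-MSCs than with PBS (log2 -0.82 ± 0.20 and -1.23 ± 0.33). Against the controls 1 gene of the list was higher with hWJ-MSCs and 4 were lower, among them Cebpb (log2 -0.93), Maf (-0.86) and Atf7 (-0.84).

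The MAP kinase and serum response list, the input to the immediate early genes, had 24 of 26 genes measured, of which 7 rose and 2 fell after Con A (median log2 0.16), beside 19.5% and 19.2% of all genes. Ets2, a factor activated by the ERK kinases, rose from 412 to 494 in control mice to 788 to 2576 (log2 1.51 ± 0.29 SE, limma adjusted p = 0.000978), while the kinase gene Map2k6 (-1.47 ± 0.31) and the ternary complex factor Elk3 (-1.03 ± 0.21) fell. With hWJ-MSCs, Ets2, Map2k1, Map3k1, Srf, which encodes serum response factor itself, and Elk4, 5 of the 24, were lower than with PBS, beside 4.38% of all genes. Against the controls none of the 24 was higher with hWJ-MSCs by limma or at an unadjusted p below 0.05 with a fold above 1.5, and Elk4 (log2 -1.56) and Elk3 (-0.7) were lower. Of 14 measured genes of 17 in the feedback list, phosphatases that switch MAP kinases off and factors that destroy short-lived RNAs, 5 rose and 1 fell after Con A (median log2 0.32), beside the same 19.5% and 19.2%. Dusp4 rose from 0 to 10 in control mice to 36 to 193 (log2 4.69 ± 0.80, limma adjusted p = 0.000362), Dusp5 by 3.77 ± 0.47 and Dusp8 by 2.81 ± 0.80, and Spry1, an inhibitor of receptor signalling, fell (-1.84 ± 0.43). Dusp1, Dusp5 and Dusp10 were lower with hWJ-MSCs, and 8 of the 14 were at an unadjusted p below 0.05 with a fold above 1.5, beside 6.97% of all genes. Against the controls 1 gene of the feedback list was higher with hWJ-MSCs, and Spry1 (log2 -2.25), Dusp1 (-1.33) and Spry4 (-1.0) were lower. These counts turned with single mice. They were 4 higher and 1 lower without hWJ-MSCs replicate 2, and 3 higher and 5 lower without Con A + PBS replicate 4.

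Among other immediate early genes, 23 of 30 were measured, and 13 rose after Con A (median log2 0.84), beside 19.5% of all genes. Ptgs2, which encodes the inducible cyclooxygenase, was listed at 0 in all 4 control mice, at 164 to 282 with Con A + PBS and at 73 to 119 with hWJ-MSCs. Klf4, a zinc finger factor, rose from 2 to 9 in control mice to 32 to 202 (log2 4.02 ± 0.79 SE, limma adjusted p = 0.000976) and was 1 to 12 with hWJ-MSCs, lower than with PBS (log2 -3.55 ± 0.79, adjusted p = 0.025). Csrnp1, an AXIN-induced nuclear factor, rose from 68 to 169 to 380 to 1624 (log2 2.89 ± 0.40) and was lower with hWJ-MSCs (-1.72 ± 0.40). In all, 10 of the 23 were lower with hWJ-MSCs than with PBS (median log2 -0.83), beside 4.38% of all genes, and 5 were above the controls there, beside 13.6%, while Ctgf was below them (log2 -1.96). These calls depended on single mice as those of the 10 genes did. Over the 121 measured genes of the 6 related lists, 28 were lower with hWJ-MSCs than with PBS by limma, 4 without Con A + PBS replicate 4, 1 without hWJ-MSCs replicate 2, and 0 without Con A + PBS replicate 1 or hWJ-MSCs replicate 3. At an unadjusted p below 0.05 with a fold above 1.5 the counts in these 4 fits were 31, 36, 39 and 38, against 40 with all mice, and the shares of all genes 4.99%, 5.76%, 6.31% and 6.47%, against 6.97%. Without hWJ-MSCs replicate 1 the limma count was 17.

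Downstream, 22 of 26 genes commonly listed as AP-1 targets were measured, of which 15 rose and Ccnd1 (cyclin D1) fell after Con A (median log2 1.81), beside 19.5% and 19.2% of all genes. Timp1, an inhibitor of metalloproteinases, rose from 0 to 6 in control mice to 270 to 283, and the monocyte chemokine Ccl2 from 12 to 31 to 605 to 862 (log2 5.29 ± 0.42 SE, limma adjusted p = 1.35e-06). With hWJ-MSCs, Ccl2 at 93 to 421 was lower than with PBS (log2 -1.84 ± 0.42, adjusted p = 0.0254), as were Plaur and Cxcl2, whereas Timp1 at 191 to 272 differed by -0.20 ± 0.45 (limma adjusted p = 0.783). Against the controls 14 of the 22 target genes were higher with hWJ-MSCs, beside 13.6% of all genes, and Ccnd1 (log2 -1.81) and Vegfa (-0.62) were lower. Against PBS 4 of the 22 were lower, beside 4.38% of all genes. Of 23 measured genes among 25 MYC partners and MYC targets, 15 rose after Con A, and Mxd4 and Mycl fell (median log2 0.98), beside the same shares. Npm1, a nucleolar protein, rose from 2584 to 3168 to 10370 to 17674 (log2 2.19 ± 0.20), Ldha, an enzyme of glycolysis, by 1.87 ± 0.30, and Mxd1, a MAX partner that competes with MYC, by 2.17 ± 0.25. With hWJ-MSCs, Mxd1 (log2 -1.25 ± 0.25), Mnt, Ddx21 and Ccnd2 were lower than with PBS, and 12 of the 23 genes were above the controls, beside 13.6% of all genes, while Mycl was below them (log2 -1.31).

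**Figure D4:**
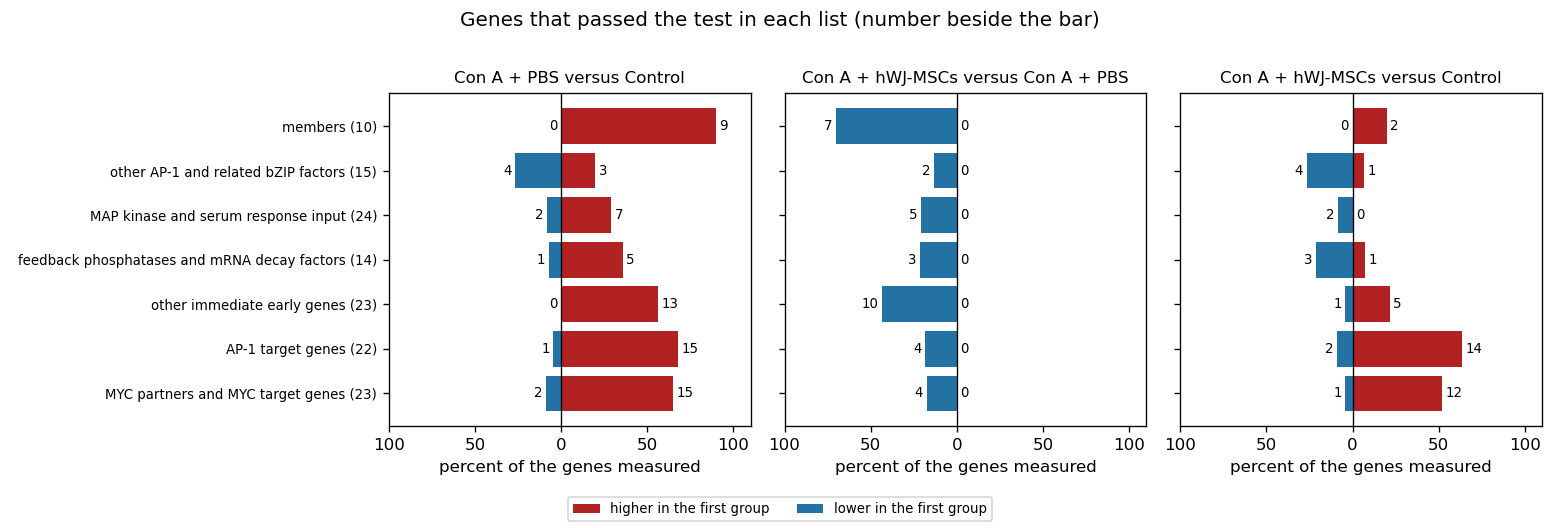
Percent of the measured genes of each list (bars, with the number of genes beside them and the number measured in brackets) that were higher (right) or lower (left) in the first group of each comparison by the limma rule. The 10 genes have 9 called up after Con A and 7 called down with hWJ-MSCs against PBS, while 14 AP-1 targets and 12 MYC partners and targets are above the controls with hWJ-MSCs.

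Among all genes other than the 10, those whose scores over the 12 mice were most like the mean of the 10 genes were Bnip3l (Pearson r = 0.991), Aebp2 (0.99), Klf6 (0.983), Prkar1a (0.982) and Efhd2 (0.979). For single genes the nearest were Smox for Atf3 and Eif6 for Ier3 (each r = 0.99), Aebp2 for Maff (0.984), Mesdc1 for Junb and Wdr43 for Jund (each 0.983), Efhd2 for Jun (0.982), Klf6 for Myc (0.979), Uck2 for Fos (0.973), Pdcd6ip for Fosl2 (0.972) and Parp4 for Egr1 (0.918). These correlations span 3 treatment groups and the same 12 mice, and were picked as the highest of all genes, so they describe likeness only. Likeness of pattern did not mean likeness of size, since Bnip3l changed by 0.72 and Klf6 by 2.66 on the log2 scale after Con A.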

How the data were processed

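Livers of 12 C57BL/6J mice were sequenced as poly-A selected, unstranded 150-bp paired-end libraries, 4 per group. According to the submitters' processing notes, Bowtie2 2.2.1 and RSEM 1.2.18 were used with mm10, and the study names DESeq2 for its own comparisons. The deposited table holds a score per gene and mouse, a whole number that the authors had normalized between mice, with no step for this stated in the sources used here. It is not a raw count, so the depth is unknown, no counting error is given, and count tests were not used. Each of the 11289 genes reached 64 in at least 2 mice. Positions are those of the table.

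The log2(score + 1) values were fitted with limma 3.58.1 in R 4.3.3 (lmFit, eBayes with a trend), in a single model of 12 mice without covariates. Single genes were also compared by exact two-sided permutation tests in scipy 1.17.1 with Python 3.11.15, and p-values measure the spread between these mice. Python was used with pandas 2.3.3, numpy 2.4.6 and matplotlib 3.10.9. The script was tested on simulated data. Replicate numbers belong to different animals and were not used as pairs. Deviations of same-numbered mice correlated at -0.118 to 0.375, and whether a number also marks a batch is not given in the sources used here.

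The 10 genes, the related lists and the markers were chosen with earlier results of these data known. In each related list, values are given for up to 3 called genes that changed most after Con A without overlap, and for 1 more in the direction with fewer calls. Some genes that meet this rule are not reported here. Other list genes named only as higher or lower were singled out after their values were seen. The fits were repeated with each mouse left out, a replicate block, no trend, only the 8 mice of a comparison, quantile normalization, median centring, a minimum mean score of 100, a pseudocount of 10, a fold change above 2 and the p before adjustment.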

Additional observations from a re-analysis of the deposited data

Results flagged for a closer look

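Among 30 groups of 4 scores (10 genes in 3 groups), 1 held a mouse far from the others by Dixon's ratio. The ratio was taken on the scores and not on the log2 scale of the other results. Fos was scored at 46 in control replicate 2 and at 14 to 19 in the other 3 control mice, a ratio of gap to range of 0.844. Chance flags about 1 in 20 such groups when the values are normally distributed, which was not tested for these scores. The lowest Con A + PBS mouse had the same Fos score, 46.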

How the results depend on the processing

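The 9 genes called after Con A and the 2 called with hWJ-MSCs against the controls kept their direction under every alternative run, and no difference of the 10 genes reversed sign. Most of these alternatives could not move a log2 difference. The unadjusted p, the fold change above 2 and the minimum mean score leave it as it is. So do the fit without trend, the 8-mice fit and the replicate block. Median centring had nothing to shift, since the medians were equal. The pseudocount of 10, the quantile normalization of scores already nearly alike and the fits without 1 mouse could move it. Apart from the fits without 1 mouse, 257 values of single genes under these alternatives stayed on their side of the threshold, 7 came to pass and 3 no longer passed. The 257 include the values under median centring, which could not change. For hWJ-MSCs against PBS, the fit of only the 8 mice called 5 of the 10 genes, without Jun (limma adjusted p = 0.056) and Atf3 (adjusted p = 0.0627), and the unadjusted p with the same fold threshold called 9. For hWJ-MSCs against controls, the 8-mice fit and the replicate block each called 4 genes in place of 2. With the replicate block the counts were 9, 7 and 4 of the 10 genes and 4429, 1297 and 3080 of all genes, against 4379, 969 and 3015 without it. Whether a replicate number marks anything beyond the mouse is not given in the labels. A fold change above 2 left 2391, 353 and 1539 of all genes, and the unadjusted p raised the 969 to 1697. A mean score of at least 100 removed Fos, and a fold above 2 removed Jund from the genes raised by Con A. Leaving out each mouse in turn gave 0 to 8 of the 10 genes for hWJ-MSCs against PBS and 2 to 5 for hWJ-MSCs against controls. Over all genes these fits gave 4093 to 4575 calls after Con A, 7 to 1575 for hWJ-MSCs against PBS and 2654 to 3254 for hWJ-MSCs against controls. The low counts between the Con A groups came without Con A + PBS replicate 1 (7), hWJ-MSCs replicate 2 (18) and hWJ-MSCs replicate 3 (7), and the cause was not tested. Without Con A + PBS replicates 4 and 3 and hWJ-MSCs replicate 1 they were 285, 563 and 506, and without Con A + PBS replicate 2 the count was 1575. DESeq2 and edgeR were not run, since they need counts. Group sizes of 4 and an unknown depth limit what can be said of genes with low scores such as Fos, Ier3 and Atf3 in control mice.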
